A study of Mus musculus with 18 samples.

Results

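Genes that hold naive T cells at rest, and in circulation through lymphoid tissue, were followed across regulatory T cells (Treg cells) with mutant Foxp3, wild-type Treg cells and conventional T cells. The 10 genes are Ccr7, S1pr1, Il7r, Klf2, Foxo1, Lef1, Satb1, Bach2, Dapl1 and Igfbp4, of 18193 genes measured. They were taken as a list of names, chosen with earlier results of these data known. Shares of all genes set beside counts of these 10 are thus descriptions. On the Affymetrix array 26 of the 45101 probe sets are assigned to exactly 1 of the 10 genes. Each gene is represented by the probe set that varied most over all arrays, and its other probe sets are given where they bear on a result.

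The 18 arrays carry RNA of CD4+ cells sorted directly from lymph nodes and spleen of B6;129 mice. Mutant Treg cells were hCD2+ GFP- cells expressing Foxp3 R397W, I363V or A384T (3 arrays each), from heterozygous mice with the mutant allele marked by hCD2 and a wild-type Foxp3 allele marked by GFP. The A384T mice also gave wild-type hCD2- GFP+ Treg cells (WT GFP of A384T mice, 3 arrays). Mice with wild-type Foxp3 at both the hCD2 and the GFP allele gave hCD2+ GFP- Treg cells (WT hCD2, 2 arrays, numbered 3 and 4), hCD2- GFP+ Treg cells (WT GFP, 2 arrays) and conventional T cells without either reporter (Tconv, 2 arrays). All mutant Treg cells thus developed beside wild-type Treg cells in the same animal. No age is given in the labels. They do not say that the arrays of a group come from separate animals, so each p measures the spread between these samples, which may be technical, and the number of arrays limits every value.

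The values are log2 RMA values of the authors, shifted so that the Tconv arrays of each probe set average 0. A value of -1 is thus 1 log2 unit under Tconv, differences between groups are unaffected, and the level of 1 gene cannot be set against that of another. Tests are limma fits over all genes. A gene counts as called where its limma p, adjusted by the Benjamini-Hochberg method over all genes, is under 0.05. The Treg markers were high on the sorted Treg arrays: the mean over 6 of them, including Foxp3, Il2ra and Ctla4, lay at 3.61 to 3.92 for R397W, 3.89 to 3.97 for I363V and 4.52 to 4.54 for A384T cells, against 4.45 to 4.57 for WT hCD2 cells and -0.06 to 0.06 for Tconv cells. Ikzf2 fell in R397W and I363V cells and Il2ra fell in R397W cells against WT hCD2 cells. A T cell marker list of 6 measured genes had 0 called between mutants and WT hCD2 cells. In bulk RNA, fewer cells of a type and less RNA per cell cannot be told apart.

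A naive T cell is kept small, non-dividing and mobile by an active programme. FOXO1 is a forkhead factor that drives transcription of Klf2, Il7r and Ccr7, and KLF2 in turn drives S1pr1, so that the cell can enter lymph nodes, leave them again and receive survival signals from IL-7. LEF1, SATB1 and BACH2 hold the naive chromatin and transcription state, and Treg cells are known for low IL-7 receptor and for repression of Satb1 by FOXP3.

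Wild-type Treg cells (4 arrays, both reporters) differed from Tconv cells (2 arrays) in part of this set. Dapl1 and Il7r fell, which is 2 of 10 genes, both lower, where 2.03% of all genes were called lower and 5.84% in either direction. The other genes did not pass on the probe set that represents them, but several Satb1 probe sets fell. The median difference of the 10 genes was -0.61, against -0.01 for all genes. A list of 29 other naive and quiescence genes, described below, had a median of 0.16 in the same comparison.

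Dapl1, which encodes a small relative of death-associated protein 1, had the largest difference. Its values were -3.28 and -2.94 on the WT hCD2 arrays and -3.07 and -2.77 on the WT GFP arrays, against 0.00 on both Tconv arrays. The groups are far apart and the arrays within each lie close together. Dapl1 was 8.09-fold lower in wild-type Treg cells (log2 difference -3.02 ± 0.28, SE, limma adjusted p = 5.89e-06). It has 1 probe set, so no other probe set checks it.

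Il7r, the alpha chain of the IL-7 receptor, was at -1.48 and -1.41 on the WT hCD2 arrays and at -1.45 and -1.39 on the WT GFP arrays, against -0.11 and 0.11 on the Tconv arrays. The 4 Treg arrays lie close together and none overlaps Tconv. Il7r was 2.70-fold lower in wild-type Treg cells (-1.43 ± 0.30, limma adjusted p = 0.00885). Its second probe set gave -1.33 ± 0.34 (limma adjusted p = 0.0414 over all probe sets). Without Tconv array 2 the call of the first probe set was lost (limma adjusted p = 0.118), with a difference of -1.32.

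Satb1 encodes a chromatin organiser of T cells. The probe set that represents it gave -1.32 ± 0.49 in wild-type Treg against Tconv cells (limma adjusted p = 0.172), and its arrays spread widely: -2.15 and -0.98 on the WT hCD2 arrays, -1.83 and -0.34 on the WT GFP arrays, and -0.60 and 0.60 on the Tconv arrays. The other 4 Satb1 probe sets varied less. Of all 5, 3 fell in the fit of every probe set, where 1.42% of all probe sets were called lower, and all 5 had differences between -1.32 and -0.91. The mean of the 5 probe sets was -1.29 and -1.14 on the WT hCD2 arrays and -1.09 and -0.97 on the WT GFP arrays, against -0.11 and 0.11 on the Tconv arrays. On that mean the groups do not overlap, and Satb1 was 2.17-fold lower in wild-type Treg cells (-1.12 ± 0.13, limma adjusted p = 3.2e-05). That call held with each of the 6 arrays left out in turn.

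The promoter windows of Dapl1 and Satb1 are shown because these 2 genes differed both between Treg and Tconv cells and between mutant and wild-type Treg cells, and that of Igfbp4 because it shares a motif with Satb1. The windows run from 250 bases before to 50 bases after the transcription start, from RefSeq on GRCm38.p6, and 8 of the 10 genes have 15 such windows. They were searched on both strands for GTAAACA, a forkhead core (complement TGTTTAC), for CACACCC, a KLF motif (complement GGGTGTG), and for ATCAAAG, a TCF and LEF motif (complement CTTTGAT). The matches are in capitals.
Dapl1 (chr2:59484403-59484702, plus strand): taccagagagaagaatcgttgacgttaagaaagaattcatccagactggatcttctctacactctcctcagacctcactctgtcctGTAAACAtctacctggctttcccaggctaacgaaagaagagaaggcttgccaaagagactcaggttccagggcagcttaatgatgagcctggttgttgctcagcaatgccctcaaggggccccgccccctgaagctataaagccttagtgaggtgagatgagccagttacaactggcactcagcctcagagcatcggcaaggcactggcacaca
Satb1 (chr17:51833241-51833540, minus strand, the most upstream of 5 windows): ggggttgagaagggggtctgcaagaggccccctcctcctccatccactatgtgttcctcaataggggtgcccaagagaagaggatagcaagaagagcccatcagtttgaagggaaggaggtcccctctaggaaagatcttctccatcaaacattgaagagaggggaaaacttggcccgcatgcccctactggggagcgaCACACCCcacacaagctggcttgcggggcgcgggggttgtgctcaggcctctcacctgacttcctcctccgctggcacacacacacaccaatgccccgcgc
Igfbp4 (chr11:99040994-99041293, plus strand): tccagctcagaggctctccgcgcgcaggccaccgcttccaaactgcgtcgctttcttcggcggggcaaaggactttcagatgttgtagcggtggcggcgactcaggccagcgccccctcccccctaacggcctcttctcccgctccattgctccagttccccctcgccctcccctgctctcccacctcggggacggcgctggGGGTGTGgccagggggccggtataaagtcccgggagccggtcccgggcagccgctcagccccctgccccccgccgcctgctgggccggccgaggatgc
The forkhead core begins at position -164 of the Dapl1 window, and 3.65% of 32851 RefSeq windows hold it. The KLF motif begins at -51 in the Satb1 window and, on the other strand, at -48 in the Igfbp4 window, and 7.95% of all windows hold it. The TCF and LEF motif, which 3.73% of windows hold, has no match in the 15 windows. A match is a description of these letters and not a bound site.

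The migration receptors did not pass. Ccr7, the chemokine receptor that brings T cells into lymph nodes, was at -0.45 to -0.18 on the 4 wild-type Treg arrays, against 0.00 on both Tconv arrays (-0.28 ± 0.26, 95% interval -0.84 to 0.27, limma adjusted p = 0.697). S1pr1, the receptor for sphingosine 1-phosphate that lets T cells leave lymph nodes, differed by 0.10 ± 0.31 (95% interval -0.56 to 0.75, limma adjusted p = 0.945). These intervals leave room for a Ccr7 level up to 0.84 log2 units lower in Treg cells.

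Klf2 and Foxo1 gave differences near 0, but with wide intervals. Klf2, the factor that controls S1pr1, differed by 0.05 (95% interval -0.79 to 0.90, limma adjusted p = 0.98). Foxo1 differed by 0.02 on its most variable probe set (95% interval -0.81 to 0.85, limma adjusted p = 0.993), while its other 3 probe sets gave -0.32 to -0.13, with 0 called in the fit of all probe sets. Lef1, a partner of TCF7 in the naive state, differed by -0.69 ± 0.51 (limma adjusted p = 0.601). Both Lef1 probe sets were lower on every wild-type Treg array than on every Tconv array, as the most variable one shows with -0.89 to -0.49 against -0.03 and 0.03.

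Bach2, a repressor that restrains effector differentiation, was lower by 0.25 to 0.52 log2 units on its 3 probe sets, none called. On the mean of its probe sets it was called lower in wild-type Treg cells (-0.40 ± 0.11, limma adjusted p = 0.0338), a call that was kept without WT GFP array 1 and lost without any other of the 6 arrays (limma adjusted p up to 0.254). Igfbp4, a binding protein of insulin-like growth factors that naive T cells express, differed by -0.94 ± 0.37 (limma adjusted p = 0.214), and 1 of its 6 probe sets was called lower (-0.81, limma adjusted p = 0.0448). Counted on the mean of probe sets, 4 of the 10 genes fell in wild-type Treg cells, namely Dapl1, Il7r, Satb1 and Bach2, where 2.36% of all genes were called lower.

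**Figure D1:**
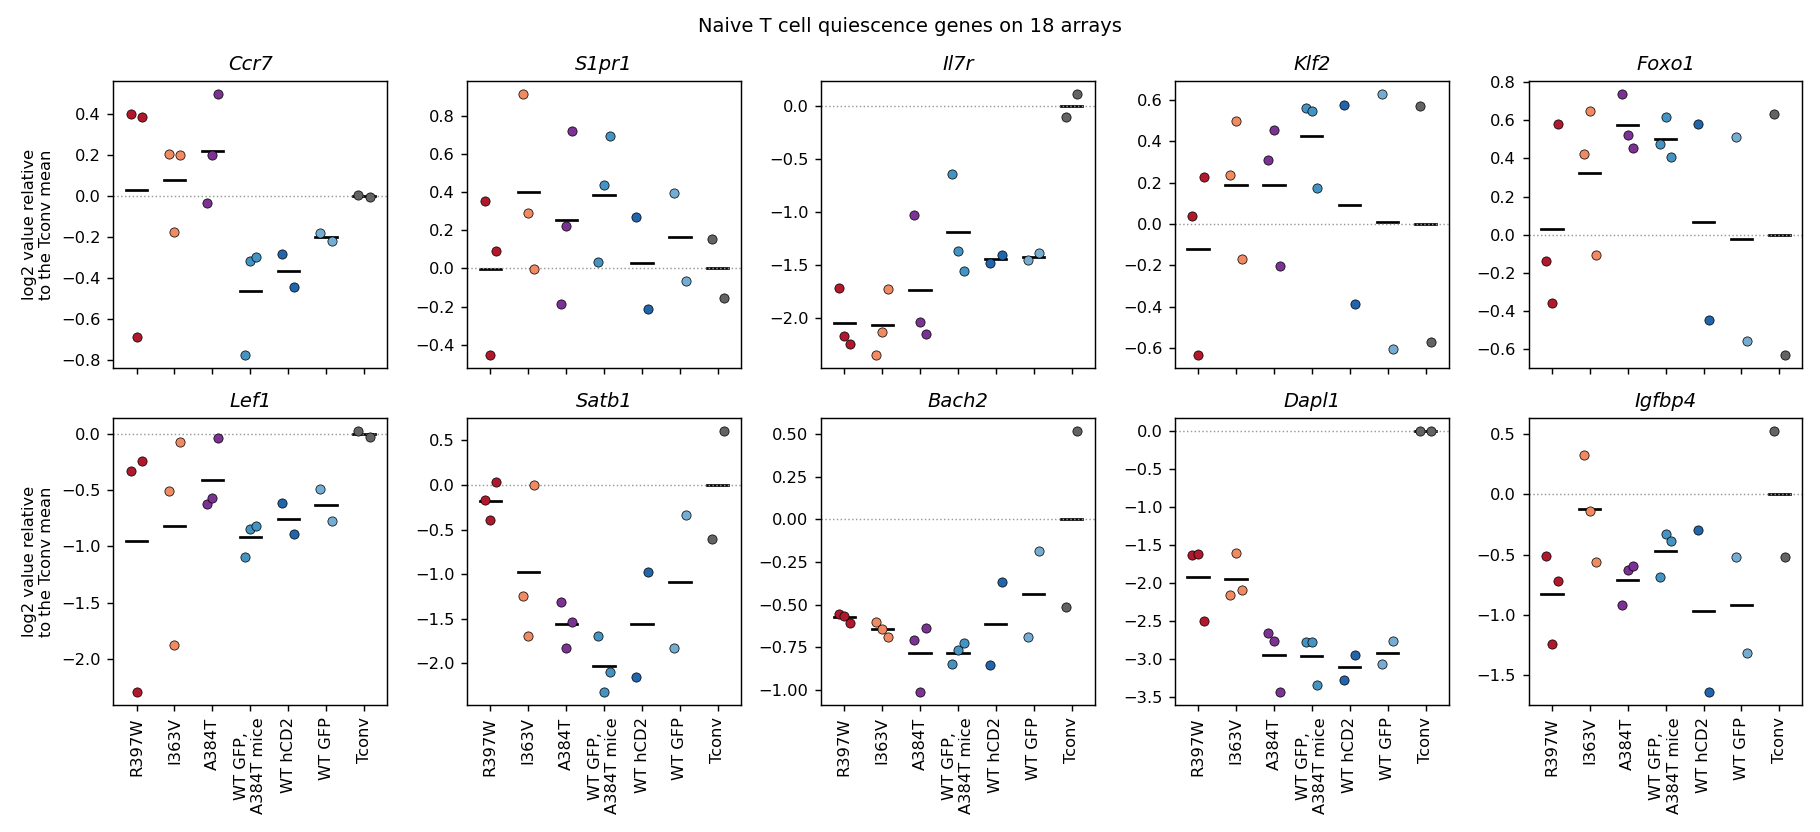
Log2 value relative to the Tconv mean (vertical axis) of each of the 10 genes on every array, with 1 panel a gene and the groups along the horizontal axis. Each point is an array and each bar a group mean. Dapl1 and Il7r lie under Tconv on every Treg array, and the wild-type and Tconv arrays of Klf2, Foxo1, Satb1 and Igfbp4 are split within their groups.

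A split within the wild-type groups touches several of these genes. Tconv array 1 was compared with Tconv array 2, WT GFP array 1 with WT GFP array 2, and WT hCD2 array 3 with WT hCD2 array 4. In all 3 pairs the difference had the same sign for 9 of the 10 genes, all except Dapl1. Some of these differences were small, down to 0.007 in size for Ccr7, 0.052 for Lef1 and 0.058 for Il7r. The share of all genes with the same sign was not counted. Over all genes, deviations of Tconv array 1, WT GFP array 1 and WT hCD2 array 3 from their group means correlated at r = 0.71 to 0.77. The split is thus not particular to the 10 genes, and the count of 9 is no result about them. Klf2 was higher on the first array of each pair by 0.96 to 1.24 log2 units, Foxo1 by 1.03 to 1.26 and Igfbp4 by 0.80 to 1.34. Satb1 was lower there by 1.17 to 1.49 and Bach2 by 0.49 to 1.03. These directions belong to the probe set that represents each gene. The other Bach2 probe sets and the second Il7r probe set were split the opposite way in all 3 pairs. Some of the other Satb1 and Foxo1 probe sets were also split the opposite way, and some were not. For Klf2 and Foxo1 these within-group differences exceed every difference between group means. With array number as a block, which WT GFP and Tconv share and WT hCD2 does not, a fit of WT GFP against Tconv cells alone called 5 of the 10 genes lower, namely Dapl1, Il7r, Igfbp4, Lef1 and Satb1, where 6.11% of all genes were called lower. Without the block, in the fit of all arrays, 2 were called, Dapl1 and Il7r, where 1.28% of all genes were called lower. The blocked fit has 1 residual degree of freedom, and the pairing is a hint from the data only. The labels name no batch for these arrays, and the part of this split in the results was not tested.

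Treg cells with mutant Foxp3 were set against WT hCD2 cells, which carry the same reporter. The 3 comparisons share the 2 WT hCD2 arrays, so they are not independent of each other. In R397W cells Dapl1 rose and the other 9 genes did not pass, where 2.26% of all genes were called in either direction and 0.715% higher. In I363V cells 0 of 10 passed (0.912% of all genes), and in A384T cells 0 of 10 passed (0.28% of all genes). At an unadjusted p under 0.05 limma gives 2 genes higher in R397W cells (Dapl1 and Satb1), 1 higher in I363V cells (Dapl1) and 1 higher in A384T cells (Ccr7).

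Dapl1 was at -1.63, -1.61 and -2.50 on the R397W arrays, at -2.15, -1.60 and -2.10 in I363V cells and at -2.66, -2.77 and -3.43 in A384T cells, against -3.28 and -2.94 on the WT hCD2 arrays. The R397W and I363V arrays all lie above the WT hCD2 arrays, and the A384T arrays overlap them. Dapl1 was 2.29-fold higher in R397W than in WT hCD2 cells (1.20 ± 0.29, limma adjusted p = 0.048). It gave nearly the same size in I363V cells without passing (1.16 ± 0.29, 95% interval 0.53 to 1.79, limma adjusted p = 0.095). In A384T cells it differed by 0.16 ± 0.29 (95% interval -0.47 to 0.79, limma adjusted p = 0.925). The R397W call stands at the threshold. It was lost in the fit of every probe set (limma adjusted p = 0.0616), with arrays centred on their median (0.054) and in a fit of only these 2 groups (0.326). With 1 array left out in turn it held without R397W array 3 (difference 1.49) and was lost without R397W array 1 (1.05), R397W array 2 (1.04), WT hCD2 array 3 (1.03) or WT hCD2 array 4 (1.36).

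Mutant Treg cells kept Dapl1 well under Tconv. Against Tconv it fell by 1.92 ± 0.29 log2 units in R397W cells (limma adjusted p = 0.00181), fell by 1.95 ± 0.29 in I363V cells (limma adjusted p = 0.00136) and fell by 2.95 ± 0.29 in A384T cells (limma adjusted p = 1.21e-05). The R397W call was lost in a fit of only these 2 groups (limma adjusted p = 0.115) and with array number as a block. The I363V call was lost with that block (limma adjusted p = 0.0755). In each of these 3 comparisons 2 of the 10 genes were called, Dapl1 and Il7r, both lower. Of all genes 0.967% were called lower in R397W cells, 1.02% in I363V cells and 2.38% in A384T cells. From low to high, the group means of Dapl1 were -3.11 for WT hCD2, -2.96 for WT GFP of A384T mice, -2.95 for A384T, -2.92 for WT GFP, -1.95 for I363V, -1.92 for R397W and 0.00 for Tconv. R397W and I363V differ by 0.04 ± 0.26 (95% interval -0.53 to 0.60, limma adjusted p = 0.986), and the 4 lowest means lie within 0.19 of each other, under their SDs of 0.21 to 0.42.

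Satb1 gave the other difference of the mutants, and it depends on the probe set. On the probe set that represents it, Satb1 differed by 1.39 ± 0.52 in R397W against WT hCD2 cells (limma adjusted p = 0.255), by 0.58 ± 0.52 in I363V cells (limma adjusted p = 0.847) and by 0.01 ± 0.52 in A384T cells (limma adjusted p = 0.999). That probe set is the one with the widest split between the WT hCD2 arrays, and when WT hCD2 array 3 was left out the I363V difference was -0.0003. The mean of the 5 Satb1 probe sets was -0.57, -0.25 and -0.51 on the R397W arrays, -0.73, -0.51 and -0.41 in I363V cells and -0.87, -1.01 and -1.03 in A384T cells, against -1.29 and -1.14 on the WT hCD2 arrays. All mutant arrays lie above the WT hCD2 arrays on this mean, those of A384T nearest to them.

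On the mean of its probe sets Satb1 was 1.70-fold higher in R397W cells (0.77 ± 0.13, limma adjusted p = 0.00553) and 1.59-fold higher in I363V cells (0.67 ± 0.13, limma adjusted p = 0.0244) than in WT hCD2 cells. In A384T cells it differed by 0.24 ± 0.13 (limma adjusted p = 0.613). The R397W call was lost without WT hCD2 array 3 (limma adjusted p = 0.0928) and in a fit of only these 2 groups (0.106), with differences of 0.67 to 0.84 over the arrays left out. The I363V call held without I363V array 1 and was lost without I363V array 2, I363V array 3 or either WT hCD2 array (limma adjusted p = 0.077 to 0.2), with differences of 0.59 to 0.76. On means of probe sets 0.775% of all genes were called higher in R397W cells and 0.302% in I363V cells. In the fit of every probe set 1 and the same of the 5 Satb1 probe sets was called higher in R397W cells (0.67 ± 0.14, limma adjusted p = 0.0304) and in I363V cells (0.71 ± 0.14, limma adjusted p = 0.0399). Of all probe sets 0.519% were called higher in R397W cells and 0.157% in I363V cells.

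**Figure D2:**
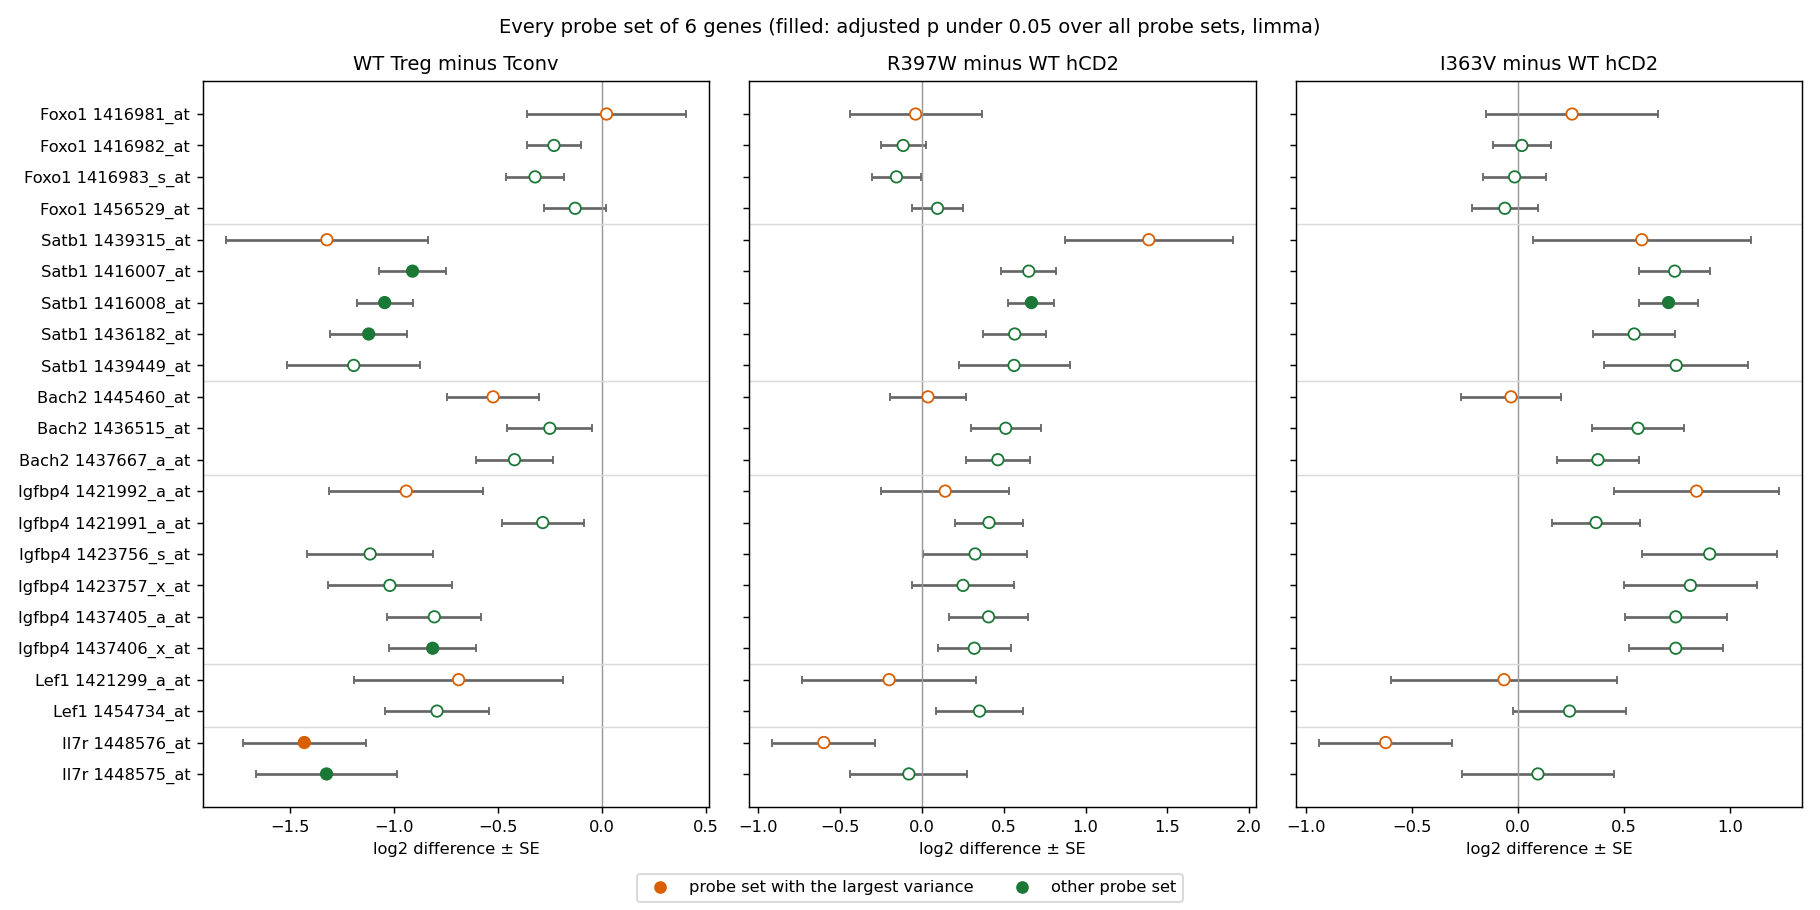
Log2 difference ± SE (horizontal axis) of every probe set of the 6 genes with several, for wild-type Treg minus Tconv cells, R397W minus WT hCD2 cells and I363V minus WT hCD2 cells. Orange marks the most variable probe set of a gene and green its others, and filled points have a limma adjusted p under 0.05 over all probe sets. The 5 Satb1 probe sets lie to the left of 0 in the first panel and to the right of 0 in the other panels.

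Il7r, which was low in wild-type Treg cells, was not higher in the mutants. Its values were -1.72, -2.17 and -2.25 on the R397W arrays, -2.35, -2.14 and -1.73 in I363V cells and -1.03, -2.03 and -2.15 in A384T cells, against -1.48 and -1.41 on the WT hCD2 arrays. The R397W and I363V arrays all lie under the WT hCD2 arrays on this probe set, and those of A384T lie on both sides of them. The differences of -0.60 ± 0.32 in R397W cells (limma adjusted p = 0.525), -0.62 ± 0.32 in I363V cells (limma adjusted p = 0.623) and -0.29 ± 0.32 in A384T cells (limma adjusted p = 0.861) did not pass. The second Il7r probe set gave -0.08, 0.09 and 0.13 for R397W, I363V and A384T cells against WT hCD2 cells. Against Tconv, Il7r fell 4.13-fold in R397W cells (limma adjusted p = 0.00202), 4.20-fold in I363V cells (limma adjusted p = 0.0016) and 3.33-fold in A384T cells (limma adjusted p = 0.00304). The second probe set was called in none of these (2.70-fold, 2.39-fold and 2.34-fold lower, limma adjusted p = 0.0739 to 0.12 over all probe sets). On the mean of its probe sets Il7r was called lower in each mutant (limma adjusted p = 0.00294 to 0.00428).

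None of the other genes passed between mutants and WT hCD2 cells on the probe set that represents it. Ccr7 was at 0.40, -0.69 and 0.39 on the R397W arrays, at 0.21, -0.17 and 0.20 in I363V cells and at -0.03, 0.20 and 0.50 in A384T cells, against -0.28 and -0.45 on the WT hCD2 arrays. The I363V and A384T arrays all lie above the WT hCD2 arrays, and R397W array 2 lies under them. Ccr7 differed by 0.40 in R397W cells (95% interval -0.19 to 0.98, limma adjusted p = 0.683), by 0.44 in I363V cells (-0.14 to 1.03, adjusted p = 0.725) and by 0.59 in A384T cells (0.003 to 1.17, adjusted p = 0.617). Lef1 shows the same R397W array apart, with -0.33, -2.29 and -0.24 on the R397W arrays, and I363V array 2 at -1.88 beside -0.51 and -0.07 on the other two. Klf2, Foxo1 and S1pr1 differed by -0.22 to 0.51 over the 3 mutants, with limma adjusted p between 0.807 and 0.99.

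Bach2 and Igfbp4 depend on the probe set as well. The most variable Bach2 probe set differed by -0.17 to 0.04 over the 3 mutants, and its other 2 probe sets by 0.38 to 0.58, none called. Over the 18 arrays the most variable Bach2 probe set correlated with the others at r = -0.42 and -0.03, and that of Foxo1 with its others at r = -0.27 to 0.32. All 6 Igfbp4 probe sets were higher in I363V than in WT hCD2 cells, by 0.37 to 0.90, with 0 called (limma adjusted p = 0.563 for the gene).

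**Figure D3:**
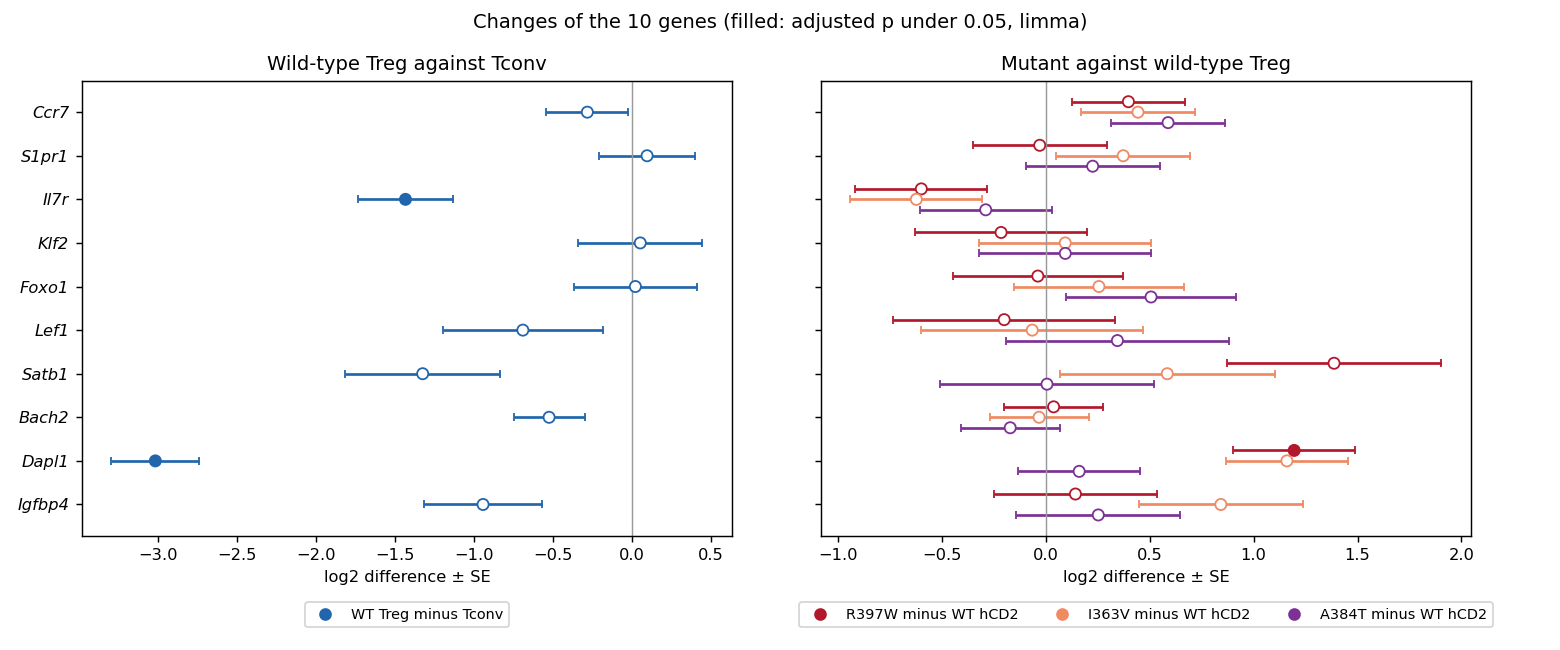
Log2 difference ± SE (horizontal axis) of the 10 genes for wild-type Treg minus Tconv cells in the left panel and for R397W, I363V and A384T minus WT hCD2 cells in the right panel. Filled points have a limma adjusted p under 0.05. Dapl1 and Il7r are filled on the left, Dapl1 in R397W cells is the filled point on the right, and I363V lies beside it at 1.16.

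The mutants were also set against each other. Dapl1 was 2.05-fold higher in R397W than in A384T cells (1.04 ± 0.26, limma adjusted p = 0.0466), which is 1 of 10 genes, where 3.13% of all genes were called and 0.907% higher. Its R397W values of -2.50 to -1.61 lie above the A384T values of -3.43 to -2.66. The Dapl1 call was lost in 4 of 5 other ways of processing (limma adjusted p up to 0.162) and held without R397W array 3 alone of the 6 arrays. On the mean of its probe sets Satb1 was 1.44-fold higher in R397W than in A384T cells (0.52 ± 0.12, limma adjusted p = 0.0261), where 0.918% of all genes were called higher. That call was lost without A384T array 2, A384T array 3 or R397W array 2 (limma adjusted p = 0.1 to 0.107) and in a fit of only these 2 groups (0.076). I363V and A384T cells differed in 0 of 10 genes (1.14% of all genes called by limma), with Dapl1 at 1.0 ± 0.26 (limma adjusted p = 0.107) and the 1 gene with an unadjusted p under 0.05. R397W and I363V cells differed in 0 of 10 genes by limma, 0 also at an unadjusted p under 0.05, where 0.0824% of all genes were called.

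A384T cells could be compared with wild-type Treg cells of the same kind of mouse, where the mutant carries hCD2 and the wild type GFP. Without a block 0 of 10 genes passed (0.522% of all genes), with 1 gene, Ccr7, at an unadjusted p under 0.05. Arrays of equal number in the 2 groups deviated together, and with the number as a block in a fit of these 2 groups 3 genes rose and 1 fell. In that fit 1.81% of all genes were called higher and 3.42% lower. It has few residual degrees of freedom, so its SEs draw largely on the spread shared over genes. They lay between 0.077 and 0.103 for the 10 genes, though the pairs of some genes spread far more than those of others.

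Ccr7 was at -0.03, 0.20 and 0.50 on A384T arrays 1 to 3, against -0.78, -0.32 and -0.30 on the WT GFP arrays of A384T mice. All A384T arrays lie above all WT GFP arrays, by 0.74, 0.52 and 0.80 in the pairs of equal number. Ccr7 was higher by 0.69 in A384T cells (SE 0.09 and limma adjusted p = 0.00209 with the block, SE 0.24 and adjusted p = 0.526 without it).

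Il7r was lower in A384T cells in each pair, by 0.39, 0.66 and 0.59 log2 units, although the groups overlap: -1.03, -2.03 and -2.15 on the A384T arrays, against -0.64, -1.37 and -1.56 on the WT GFP arrays. The change was -0.55 ± 0.09 with the block (limma adjusted p = 0.00689) and did not pass without it (adjusted p = 1). Its second probe set was lower in 3 of 3 pairs as well, by 0.36 to 0.48.

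Lef1 rose by 0.51 ± 0.10 with the block (limma adjusted p = 0.0241), with differences of 0.47, 0.28 and 0.78 in the pairs. Satb1 rose by 0.48 ± 0.08 with the block (limma adjusted p = 0.00937), with 0.39, 0.49 and 0.55 in the pairs. Neither passed without the block (limma adjusted p = 1 for each). The second Lef1 probe set and all 5 Satb1 probe sets were higher in 3 of 3 pairs. On means of probe sets the blocked fit called the same 3 genes that have several probe sets, with Satb1 at 0.38 (limma adjusted p = 0.019), Lef1 at 0.48 (0.00692) and Il7r at -0.47 (0.00553). Bach2 was not called with the block. Its 2 less variable probe sets were higher in 3 of 3 pairs, and the most variable one in 2 of 3 pairs (-0.00 ± 0.10 with the block, limma adjusted p = 0.992).

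Dapl1 differed by 0.01 ± 0.08 with the block (limma adjusted p = 0.968), and Klf2 by -0.24 (limma adjusted p = 0.187). All 6 Igfbp4 probe sets were lower in A384T cells in 3 of 3 pairs, with -0.25 ± 0.08 on the most variable one (limma adjusted p = 0.128 with the block). S1pr1 and Foxo1 differed by -0.13 and 0.07 (limma adjusted p = 0.498 and 0.77 with the block).

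The reporters differ between these groups, so their effect and that of the mutation cannot be told apart in this comparison alone. In mice with wild-type Foxp3 at both alleles, WT hCD2 cells differed from WT GFP cells in 0 of 10 genes by limma, 0 also at an unadjusted p under 0.05 (0.0% of all genes called), with differences of -0.48 to 0.09. The A384T difference minus that reporter difference had 0 of 10 genes called (0.0495% of all genes), with Ccr7 at 0.85 ± 0.39 (limma adjusted p = 1) and as the 1 gene with an unadjusted p under 0.05. WT GFP cells of A384T mice differed from WT GFP cells of wild-type mice in 0 of 10 genes by limma, 0 also unadjusted (0.0% of all genes).

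**Figure D4:**
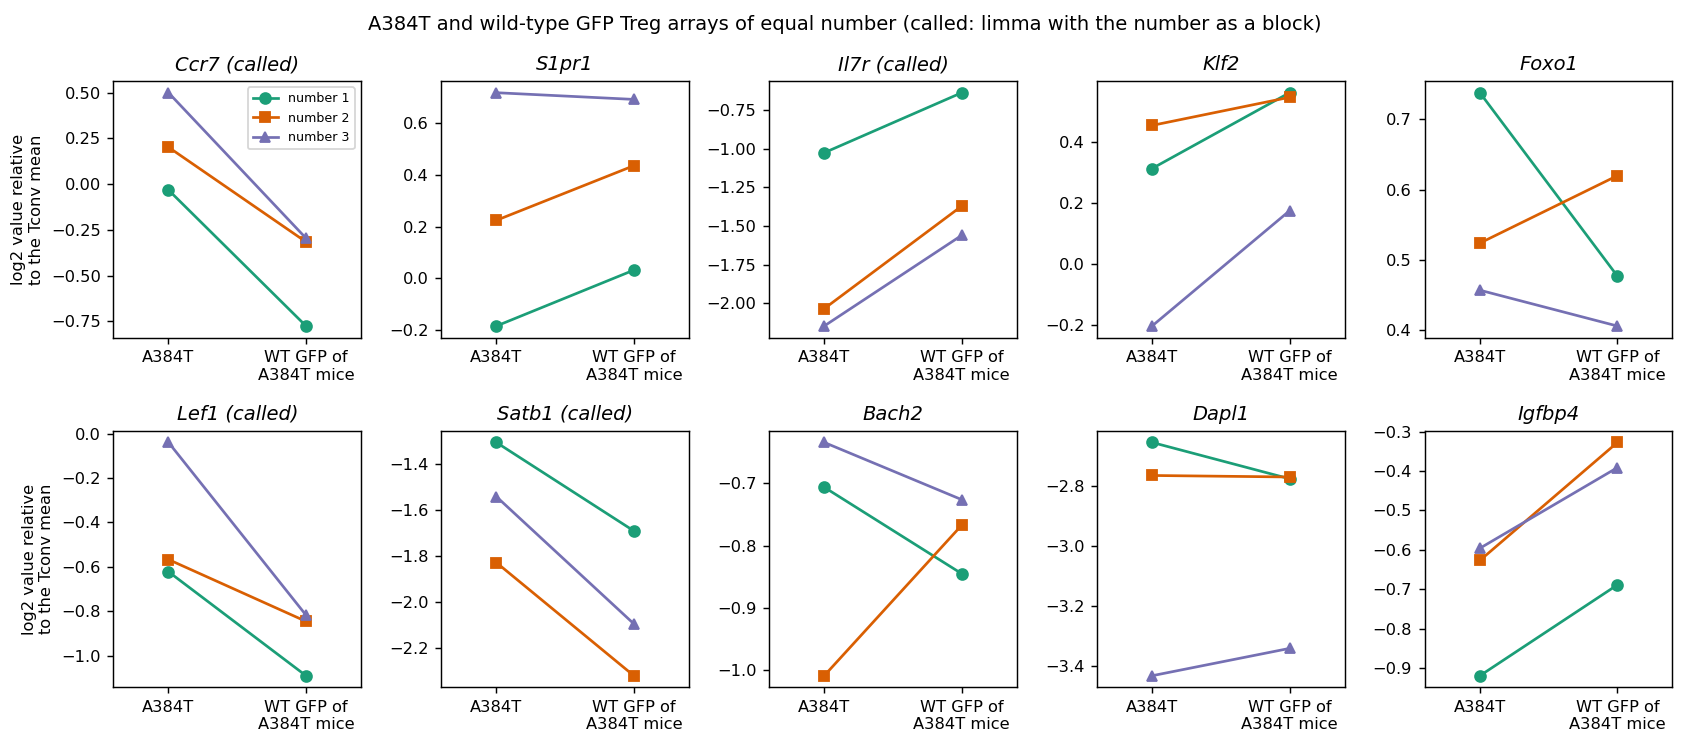
Log2 value relative to the Tconv mean (vertical axis) of the 10 genes on A384T arrays and on the WT GFP arrays of A384T mice, with lines joining arrays of equal number. In the panels of Ccr7, Lef1 and Satb1 all 3 lines are higher at A384T, in that of Il7r all 3 are lower, and these 4 genes are called with the number as a block.

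Other genes of the naive and quiescence programme were measured as a list of 29, also chosen with earlier results of these data known. In wild-type Treg against Tconv cells limma called 2 of them higher, where 3.81% of all genes were called higher, and 1 lower, where 2.03% were. Gfi1, a transcriptional repressor (1.49), and Id3, an inhibitor of E proteins (1.43), rose, and the Tec family kinase gene Txk fell by 0.69. The Gfi1 call held with each of the 6 arrays left out. That of Id3 was lost without Tconv array 2 (limma adjusted p = 0.142), and that of Txk without Tconv array 1, Tconv array 2 or WT GFP array 1 (limma adjusted p = 0.0514 to 0.177). In WT GFP against Tconv cells 0 of the 29 were called lower, where 1.28% of all genes were, and 2 were called higher. The share of all genes called higher there is not given here, so that count is not set against it. With the replicate block described above 10 of the 29 were called, where 18.4% of all genes were called in either direction. Of these, 8 were higher and 2 lower, where 6.11% of all genes were called lower. In R397W against WT hCD2 cells 1 fell, Il6ra, the IL-6 receptor alpha chain (-0.90, limma adjusted p = 0.0224), where 1.55% of all genes were called lower. The Il6ra call was lost on the mean of probe sets (limma adjusted p = 0.0579), in a fit of only these 2 groups (0.143) and without either WT hCD2 array, R397W array 1 or R397W array 3 (0.0573 to 0.253). In I363V and A384T cells 0 of the 29 passed by limma. The median difference of the list was -0.03 in R397W, 0.24 in I363V and 0.24 in A384T cells, against -0.02 for all genes in each.

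Activation and effector genes, which resting naive cells hold low, were measured beside them. Ctla4 and Tnfrsf18 of this list are also in the Treg marker list, so the lists are not separate. It was chosen with earlier results of these data known. In wild-type Treg against Tconv cells 15 of 17 rose, where 3.81% of all genes were called higher, led by Itgae (4.59), Ctla4 (4.07), Klrg1 (3.93) and Tnfrsf4 (3.51). Against WT hCD2 cells 12 of 17 fell in R397W cells, 8 in I363V cells and 4 in A384T cells, where 1.55%, 0.682% and 0.143% of all genes were called lower, with median differences of -1.62, -1.32 and -0.35. In fits of only the groups compared the called numbers were 4 in R397W, 5 in I363V and 3 in A384T cells, and without WT hCD2 array 4 they were 9, 4 and 2. The shares of all genes called in those fits are not given here, so these counts show only how far the calls depend on the fit. Klrg1, a receptor of terminally differentiated cells, fell 27.3-fold in R397W, 21.2-fold in I363V and 17.9-fold in A384T cells, and the S100 genes S100a4 and S100a6 were among the called genes in all 3 mutants. The 10 quiescence genes had medians of 0.00, 0.31 and 0.19 in the same comparisons.

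Markers of other cells were called in several of these comparisons. Against Tconv cells 2 of 5 dendritic cell markers fell in wild-type Treg cells, Itgax 2.23-fold and Flt3 1.42-fold, and the same 2 fell in each mutant. The mean over the 5 was -0.48 to -0.42 on the WT hCD2 arrays and -0.51 to -0.48 on the WT GFP arrays, against -0.28 to 0.28 on the Tconv arrays. Of 6 B cell markers Cd79b was 4.62-fold higher in wild-type Treg than in Tconv cells, and of 5 CD8 and NK cell markers Klrk1 was 1.51-fold lower, while 0 of 7 myeloid markers were called by limma.

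In R397W against WT hCD2 cells 2 of 7 myeloid markers fell. The mean over the 7 myeloid markers was -1.61 to -1.23 on the R397W arrays, against 0.33 to 0.59 on the WT hCD2 arrays, and the called genes were Lyz1, 21.3-fold lower, and Lyz2, 6.30-fold lower. The mean over 6 B cell markers was -0.02 to 0.43 in R397W cells and -0.31 to -0.17 in I363V cells, against 0.19 to 0.27 on the WT hCD2 arrays, with Cd22 called lower in I363V cells. In R397W against A384T cells Lyz1 was 6.60-fold and Lyz2 2.53-fold lower, Ms4a1 3.01-fold higher and Nkg7 4.05-fold lower. In that comparison 3 of 6 Treg markers and 1 of 6 T cell markers were also called lower, where 3.13% of all genes were called in either direction. In I363V against A384T cells 1 of 5 CD8 and NK cell markers was called lower too, where 1.14% of all genes were called in either direction. The part of other cells in the Dapl1, Il7r and Satb1 results was not tested.

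**Figure D5:**
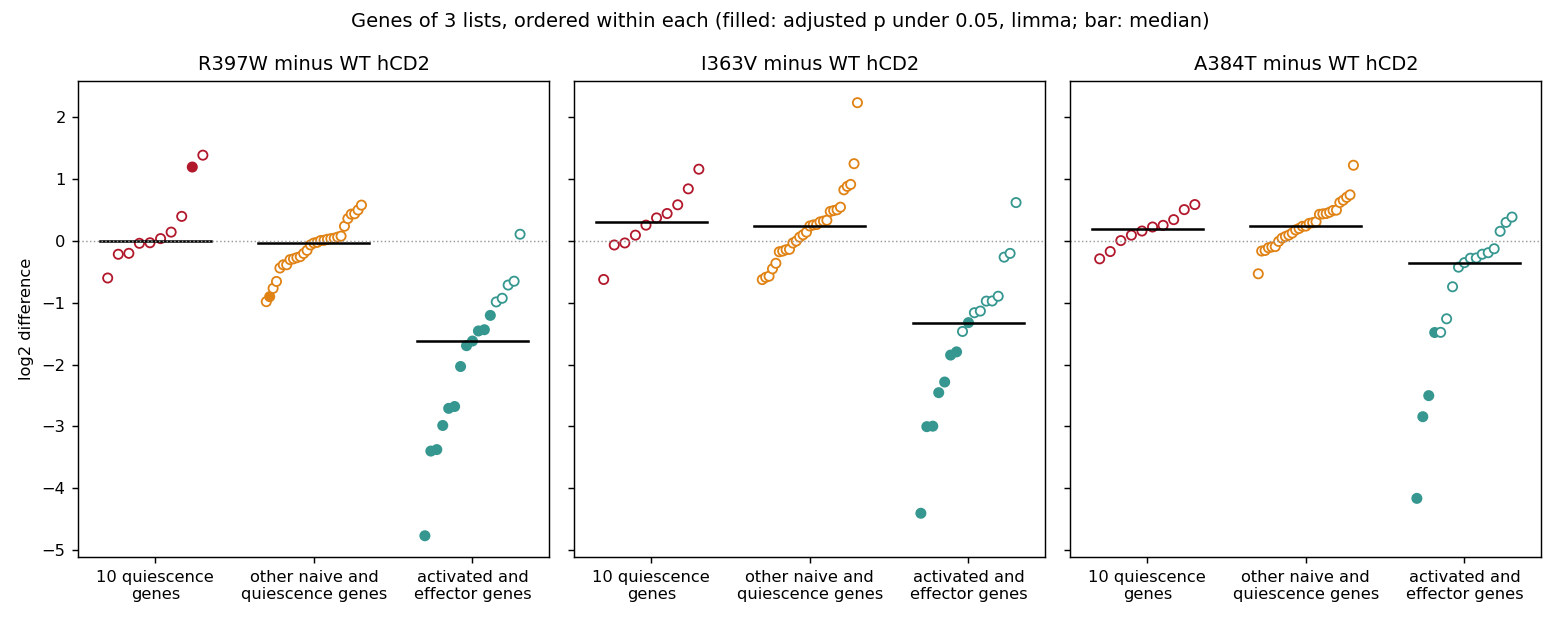
Log2 difference against WT hCD2 cells (vertical axis) of each gene in 3 lists, in ascending order within each list, for R397W, I363V and A384T cells. Filled points have a limma adjusted p under 0.05 and bars are medians. The medians of the quiescence and other naive genes lie between -0.03 and 0.31, and those of the activation and effector genes between -1.62 and -0.35.

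Over the 18 arrays, which share the RMA run and the shift to Tconv, the gene with the profile most like that of Dapl1 was Enc1 (Pearson r = 0.98). The closest profile was that of Rcbtb2 for Satb1 (0.93), Runx3 for Il7r (0.86), Cnot3 for Foxo1 (0.96), Cs for Klf2 (0.94), Vps26b for S1pr1 (0.90), Gm6377 for Bach2 (0.90), Lmo4 for Igfbp4 (0.90), Hvcn1 for Ccr7 (0.85) and Prdx3 for Lef1 (0.81). Within the 10 genes, Klf2 and Foxo1 correlated at r = 0.89 and Ccr7 and Lef1 at r = 0.70. These values describe the arrays, and for Klf2 and Foxo1 the split between arrays of the wild-type groups enters them.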

How the data were processed

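RNA of 18 samples in 7 groups was measured on Affymetrix mouse arrays after two-cycle labelling, per the labels' protocols. The submitters' processing notes name RMA, with a version not given in the sources used here, and the authors' deposited values are on a log scale taken to be log2, as RMA gives. Each probe set sums to at most 1e-06 over the Tconv arrays, so the level is lost and no filter on dim probe sets was possible. Of 45101 probe sets, 34945 are assigned to 1 gene by the platform annotation, 932 to several and 9211 are unlisted. These gave 18193 genes, each represented by its most variable probe set over all arrays.

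The values were fitted with limma 3.58.1 in R 4.3.3 (lmFit on 7 group means of all arrays, eBayes, Benjamini-Hochberg over all genes, threshold 0.05), after the code was tested on simulated data. The alternatives were the mean of probe sets, every probe set tested, arrays centred on their median, only the groups compared, the replicate block and each array left out in turn. Running the gene lists through these, leaving out arrays on the mean of probe sets, and setting WT GFP alone against Tconv with the block were added after the data were seen.

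The pairing of arrays by number comes from the data, not from a label: the deviations of equal-numbered A384T arrays and WT GFP arrays of A384T mice from their group means correlated at r = 0.58 to 0.69 in the 3 pairs, and those of unequal number at -0.46 to -0.16. The deviations of a group sum to 0, so positive values for equal numbers push those of unequal number under 0. The negative values are thus no separate evidence for the pairs. The 10 genes and the lists were chosen with earlier results of these data known. The genes named are the 10, the largest called changes of each list (at most 4 a comparison) and the most correlated gene of each of the 10. Promoter windows come from RefSeq tables of GRCm38.p6, with Ccr7 and S1pr1 not among them.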

Additional observations from a re-analysis of the deposited data

Results flagged for a closer look

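The change in Dapl1 differed between 2 mutants: R397W cells were higher than A384T cells by 1.04 log2 units (limma adjusted p = 0.0466), a difference between groups that are both set against the same WT hCD2 arrays. All 3 R397W arrays lie above all 3 A384T arrays. The call was lost in 4 of 5 other ways of processing, with limma adjusted p of 0.0393 to 0.162 over them, and held in the fit on the mean of probe sets. With 1 array left out in turn the difference was 0.79 to 1.33, and it was called only without R397W array 3 (adjusted p of 0.00851 to 0.19 over those fits).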

How the results depend on the processing

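The calls of Dapl1, and of Satb1 on the mean of its probe sets, in wild-type Treg against Tconv cells held in each alternative run for them. A group left with 1 array was assumed to vary like the other groups. Of the 10 genes, wild-type Treg against Tconv cells gave 4 called on the mean of probe sets and 1 to 3 with 1 array left out. A replicate block leaves that comparison without an estimate, since WT hCD2 arrays share no number with Tconv arrays. Deviations of equally numbered Tconv and WT GFP arrays correlated at r = 0.71. With 2 arrays a group the 2 pairs mirror each other, so this is 1 value. WT hCD2 array 3, of unequal number, correlated at r = 0.72 with Tconv array 1 and at 0.77 with WT GFP array 1. The value thus cannot show that equal numbers mark pairs. R397W against WT hCD2 cells gave 2 on the mean of probe sets, 0 with every probe set tested, 0 with arrays centred on their median, 0 with only the groups compared and 0 to 1 with 1 array left out. I363V against WT hCD2 cells gave 1 on the mean of probe sets. R397W against A384T cells gave 2 on the mean of probe sets, 0 with every probe set tested, 0 with centred arrays, 0 with a replicate block and 0 to 1 with 1 array left out. With only the groups compared that comparison gave 1, which was Satb1 on the probe set that represents it and not Dapl1. A384T cells against WT GFP cells of A384T mice gave 4 with a replicate block. Against Tconv, a replicate block gave 1 in A384T (Dapl1), 1 in I363V (Il7r) and 0 in R397W cells, the fit of only the groups compared gave 1 in R397W cells, and 2 to 3 were called with 1 array left out. The reporter comparisons, I363V against A384T cells and R397W against I363V cells gave 0 under every alternative, as did A384T against WT hCD2 cells. Of the activation and effector genes, with a replicate block 11 were called lower in A384T mice, where 3.42% of all genes were called lower. Of the 29 other naive genes a replicate block called 3 higher and 1 lower in A384T mice, where 1.81% of all genes were called higher and 3.42% lower. In WT GFP against Tconv cells the block moved the count of the 29 from 2 to 10, where 18.4% of all genes were called with it. The share called in either direction without the block is not given here. Mutants and WT hCD2 cells share 1 number only, so no replicate block was possible there. Satb1 in I363V against WT hCD2 cells turned to -0.0003 without WT hCD2 array 3, with a range of -0.0003 to 1.17 over arrays left out. Of the 39 differences not examined singly, in 5 comparisons, 24 changed sign under some alternative, and those genes have no settled direction. Where a cause is not shown by the alternative itself (fewer arrays, more tests), the cause was not tested. Signal over background is lost in the shifted values, so a dim probe set cannot be told from a bright one.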
